A study of Homo sapiens with 9 samples.

Results

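The 3 CTCFL-OE libraries and the 3 Control libraries described here were 6 of the 9 RNA-seq libraries of the study, chosen by their labels and not by any measured value. All came from OVCAR3, an established line of high-grade serous ovarian carcinoma cells. For CTCFL-OE, cells were transiently transfected with 2 µg of pCpGfree-vitroHBORIS, which carries the CTCFL open reading frame, and were collected 48 h later. The study's methods name pCpGfree-vitroHLacZ as the plasmid of the Control cells, whereas the sample records give their treatment as none, so the transfection shared by both groups rests on the methods. Each biological replicate was a pool of 3 technical replicates, and transfection was transient, so a library mixed cells with and without plasmid.

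CTCFL, also called BORIS, is a paralog of the insulator protein CTCF with a nearly identical zinc finger domain and different ends. It is normally made in male germ cells and is switched on again in many tumours, and it can bind a subset of CTCF sites in promoters. CTCF holds chromatin loops together with cohesin, so an added CTCFL protein can in principle meet CTCF at shared sites. The comparison asks which transcripts differ in cancer cells that receive additional CTCFL, and how far each difference was seen in every single CTCFL-OE library.

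The 6 libraries held 17249451 to 24490080 counts. Of 15 ovarian carcinoma marker genes all 15 had more than 3 counts in every library, and their summed level was 6548 to 6699 CPM (counts scaled to a common library size) in Control and 6096 to 6309 CPM in CTCFL-OE. The 10 fibroblast markers summed to 28.4 to 34.7 CPM in Control and 26.2 to 46.8 CPM in CTCFL-OE, the 5 immune markers to at most 0.917 and 1.43 CPM, and the 4 endothelial markers to 8.18 to 9.33 and 11.5 to 12.6 CPM. Only 2 of the fibroblast, 0 of the immune and 3 of the endothelial markers had enough counts to be tested, and none of these was a differentially expressed gene as defined below. The endothelial markers did not move together. VWF had 102, 131 and 91 counts in Control and 195, 151 and 121 in CTCFL-OE, whereas PECAM1 had 37, 45 and 36 against 28, 11 and 13. The part of the higher endothelial sum in the results was not tested. CTCFL-OE replicates 2 and 3 stood apart from replicate 1. Mitochondrially encoded genes took 6.16 to 6.52% of counts in Control, 7.403% in CTCFL-OE replicate 1, 12.4% in replicate 2 and 14.9% in replicate 3 (exact permutation test, two-sided, p = 0.1, the smallest that 3 against 3 allows). Over the 500 most variable genes the distance between CTCFL-OE replicates 2 and 3 was 15.95, as within Control (13.3 to 16.4), while replicate 1 lay 24.1 and 27.5 from them and 28.1 to 30.4 from Control.

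CTCFL itself was counted 6, 9 and 10 times in the Control libraries and 36, 34 and 72 times in the CTCFL-OE libraries, that is 0.309, 0.360 and 0.515 CPM against 1.72, 1.86 and 4.70 CPM. All 3 CTCFL-OE libraries were above all 3 Control libraries, and replicate 3 was the highest. The log2 fold change was 2.77 (SE 0.49, edgeR quasi-likelihood test with Benjamini-Hochberg adjustment over all genes, adjusted p = 0.0212). The summed counts were 25 and 142, a ratio of 6.66 with a 95% interval of 4.33 to 10.6 that covers counting error only. With Control replicate 1 or 2 left out the adjusted p was 0.116 or 0.114. Reads of the plasmid and of the cells' own gene (chr20:57495966-57525652 on GRCh38) were counted together and cannot be told apart. CTCF was at 79.5, 87.6 and 80.8 CPM in Control and at 81.7, 71.6 and 68.8 CPM in CTCFL-OE, and did not pass the test (log2 fold change -0.16, SE 0.10, edgeR adjusted p = 0.319).

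Genes were called differentially expressed (DEGs) where the size of the log2 fold change passed 1 with an edgeR adjusted p under 0.1. Of 17104 genes tested 835 were DEGs (4.88%), with 650 higher (3.8%) and 185 lower (1.08%) in CTCFL-OE. All 3 CTCFL-OE libraries lay above the Control range for 3224 genes (18.8%) and below it for 3095 (18.1%), together 36.9%. The number of DEGs rested on every library. Without Control replicate 1, 2 or 3 there were 189, 212 and 184 DEGs, without CTCFL-OE replicate 1 there were 1784, without replicate 2 there were 308, and without replicate 3 there were 592, of which 218 were lower. In these 6 fits 76 of the 650 higher and 66 of the 185 lower DEGs were called every time, and these 142 genes are called retained DEGs below. That rule itself favours genes with like values in all libraries. A further 288 higher and 34 lower DEGs were called in only 1 of the 6 fits.

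**Figure D1:**
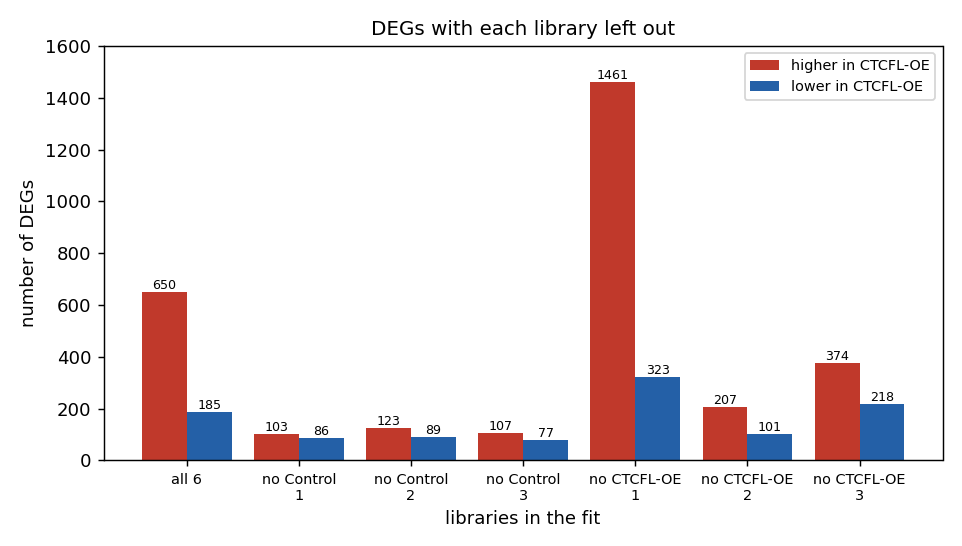
Number of DEGs higher (red) and lower (blue) in CTCFL-OE with all 6 libraries and with each library left out in turn, from the edgeR fit. Higher DEGs range from 103 without Control replicate 1 to 1461 without CTCFL-OE replicate 1, and lower DEGs from 77 without Control replicate 3 to 323 without CTCFL-OE replicate 1.

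In the libraries they were called in, the lower DEGs had closer medians than the higher DEGs. Each library was set against the Control mean on the log2 CPM scale with a prior count of 2. The 185 lower DEGs had median differences of -1.25, -1.37 and -1.20 in CTCFL-OE replicates 1, 2 and 3, and all 185 lay below the Control range in each library. The 650 higher DEGs had medians of 0.761, 1.33 and 1.41. A difference past 1 was reached by 188 of the higher DEGs in replicate 1 (28.9%), by 555 in replicate 2 (85.4%), by 594 in replicate 3 (91.4%) and by 136 in all 3 (20.9%), and 375 passed it in replicates 2 and 3 but not in replicate 1. In 7 of the higher DEGs replicate 1 lay on the Control side of 0. Among the lower DEGs 134, 150 and 130 passed 1 in the single libraries and 71 in all 3 (38.4%). These values describe the libraries the DEGs were called in, so no test was made on them.

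**Figure D2:**
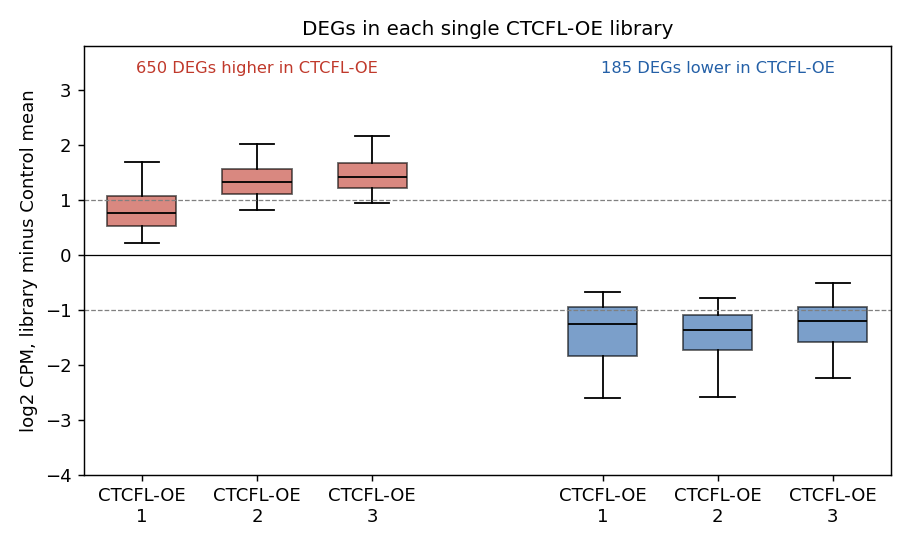
Log2 CPM of each CTCFL-OE library minus the Control mean for the 650 higher DEGs (red) and the 185 lower DEGs (blue). Boxes span the quartiles with the median as a line, whiskers reach the 5th and 95th percentiles, and dashed lines mark a difference of 1. Replicate 1 sits lower than replicates 2 and 3 for the higher DEGs (median 0.761 against 1.33 and 1.41), while the 3 medians for the lower DEGs lie between -1.37 and -1.20.

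The calls were also read in libraries that took no part in them. The fit without replicate 1 of both groups called 1287 higher and 282 lower genes that could be read in the left-out pair. In that pair 77.4% of the higher and 88.3% of the lower ones moved the same way, with medians of 0.37 and -0.716, and 13.9% and 36.2% passed a difference of 1. Over all genes 50.4% of this pair's differences were positive, 2.27% were above 1 and 1.92% below -1. The fit without replicate 3 called 95 higher and 114 lower genes in common with its left-out pair. There 100% and 95.6% moved the same way, against 50.9% and 49.1% of all genes, with medians of 1.52 and -1.12. A difference of 1 was passed by 89.5% and 58.8%, against 11.2% and 2.24% of all genes. Whether rises and falls differed in this was not tested. The fit without replicate 2 called no DEG in edgeR, with 2036 genes at an unadjusted p under 0.05.

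**Figure D3:**
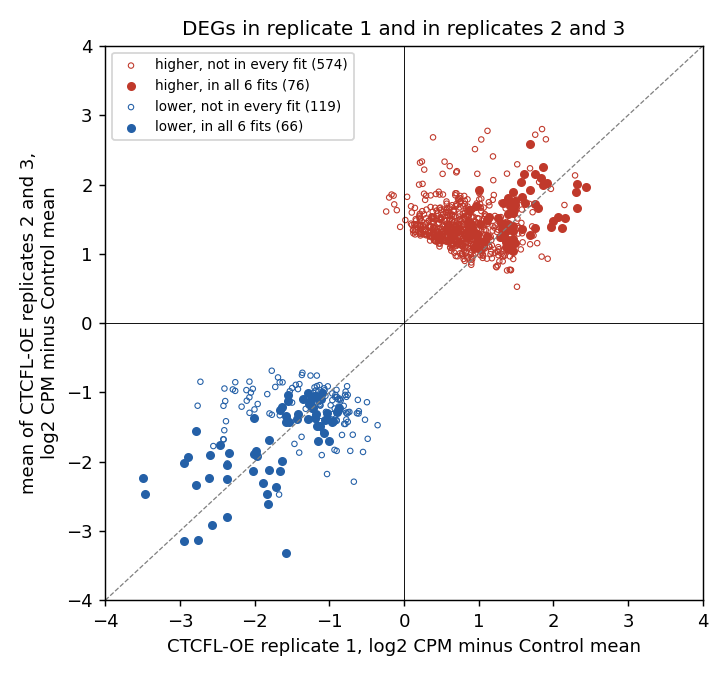
Each DEG by its log2 CPM difference from the Control mean in CTCFL-OE replicate 1 (horizontal) and in the mean of replicates 2 and 3 (vertical). Filled points are the 76 higher and 66 lower DEGs called in all 6 fits with 1 library left out, open points the other 574 and 119, and the dashed line marks equal values. Filled points lie along the line, whereas most open higher DEGs lie above it.

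Several genes of stratified epithelium fell, and KRT4 rose. Of 23 tested genes of the keratin and squamous epithelium list 8 were lower DEGs and 1 was higher, and the list median log2 fold change was -0.63 against 0.02 for all genes tested. The list's median difference was -0.60, -0.60 and -0.66 in the single CTCFL-OE libraries. KRT6A, a keratin of activated keratinocytes (chr12:52487176-52493257), was at 47.9, 49.5 and 48.8 CPM in Control and at 9.37, 10.1 and 10.2 CPM in CTCFL-OE. Both groups were tight and far apart (log2 fold change -2.30, SE 0.10, edgeR adjusted p = 0.000132). KRT6B went from 2.84 to 2.93 CPM to 0.478 to 0.658 CPM (log2 fold change -2.32, SE 0.22), and KRT6C fell by 2.13 (SE 0.22). The 3 KRT6 genes are near-identical, so reads may have been split among them and each value is uncertain. S100A2, a calcium-binding protein of basal epithelium, was at 90.7, 99.9 and 90.2 CPM against 34.8, 38.4 and 36.8 CPM and fell by 1.35 (SE 0.10, edgeR adjusted p = 0.000948).

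Other genes of stratified epithelium moved with the keratins. COL17A1, the hemidesmosomal collagen, was at 16.8, 18.8 and 15.5 CPM in Control and 8.41, 4.11 and 6.46 CPM in CTCFL-OE (log2 fold change -1.42, SE 0.23). ANXA8 fell by 2.32 (SE 0.30), with a near-identical copy that makes its value uncertain. These genes and the 3 KRT6 genes and S100A2 are the 6 retained lower DEGs of the list. TP63, a master regulator of basal epithelium, was low throughout, at 1.08 to 1.75 CPM in Control and 0.326 to 0.478 CPM in CTCFL-OE (log2 fold change -1.74, SE 0.31), and its edgeR adjusted p was 0.108 and 0.104 without Control replicate 1 and 2. KRT16, a keratin of stressed epithelium, was at 5.92 to 6.90 CPM against 1.82, 4.22 and 3.72 CPM and was a DEG in 1 of the 6 fits. KRT4, a keratin of upper layers of moist epithelium, went the other way, at 11.6, 10.5 and 11 CPM against 44.5, 38.4 and 24.9 CPM (log2 fold change 1.70, SE 0.20). Of the simple-epithelium keratins, KRT7 and KRT19 fell by less than the fold threshold and lay below Control in all 3 libraries (log2 fold changes -0.37, SE 0.12, edgeR adjusted p = 0.0869, and -0.43, SE 0.13, adjusted p = 0.0768). KRT8 and KRT18 did not pass the test, with log2 fold changes of -0.20 (SE 0.18) and -0.15 (SE 0.18).

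Several genes that TGF-beta is known to induce fell, although the ligand and its SMAD feedback gene did not pass the test. Of 29 genes tested in the TGF-beta list 5 were lower DEGs and 1 was higher, and the median was -0.22, with -0.46, -0.34 and 0.02 in the single libraries. TGFBI, a secreted matrix protein named for its induction by TGF-beta (chr5:136028988-136063818), was at 84.8, 89.7 and 87.8 CPM in Control and at 7.65, 12.3 and 27.8 CPM in CTCFL-OE. Replicate 3 was the least changed, and no CTCFL-OE library reached the Control range (log2 fold change -2.47, SE 0.39, edgeR adjusted p = 0.0147). PMEPA1, which restrains SMAD signalling, was at 194, 183 and 192 CPM against 25.4, 37.6 and 65.8 CPM (log2 fold change -2.15, SE 0.30). ITGB6, the integrin subunit that helps release active TGF-beta from its latent form, was at 161, 163 and 162 CPM against 43.6, 25 and 42.8 CPM (log2 fold change -2.13, SE 0.20). These 3 were retained DEGs.

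SKIL, a SMAD co-repressor, fell by 1.01 (SE 0.12) and missed the fold threshold without Control replicate 3 (-0.95) and without CTCFL-OE replicate 2 (-0.93). The co-receptor TGFBR3 rose, at 6.87 to 7.20 CPM in Control and 19.5, 15.7 and 20.1 CPM in CTCFL-OE (log2 fold change 1.39, SE 0.13, retained). TGFB1 was at 33.1 to 38.3 CPM against 21.3, 25.4 and 37.1 CPM (log2 fold change -0.34, SE 0.19), and SMAD7 at 92.2 to 103 CPM against 65.0, 78.2 and 118 CPM (log2 fold change -0.19, SE 0.20).

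**Figure D4:**
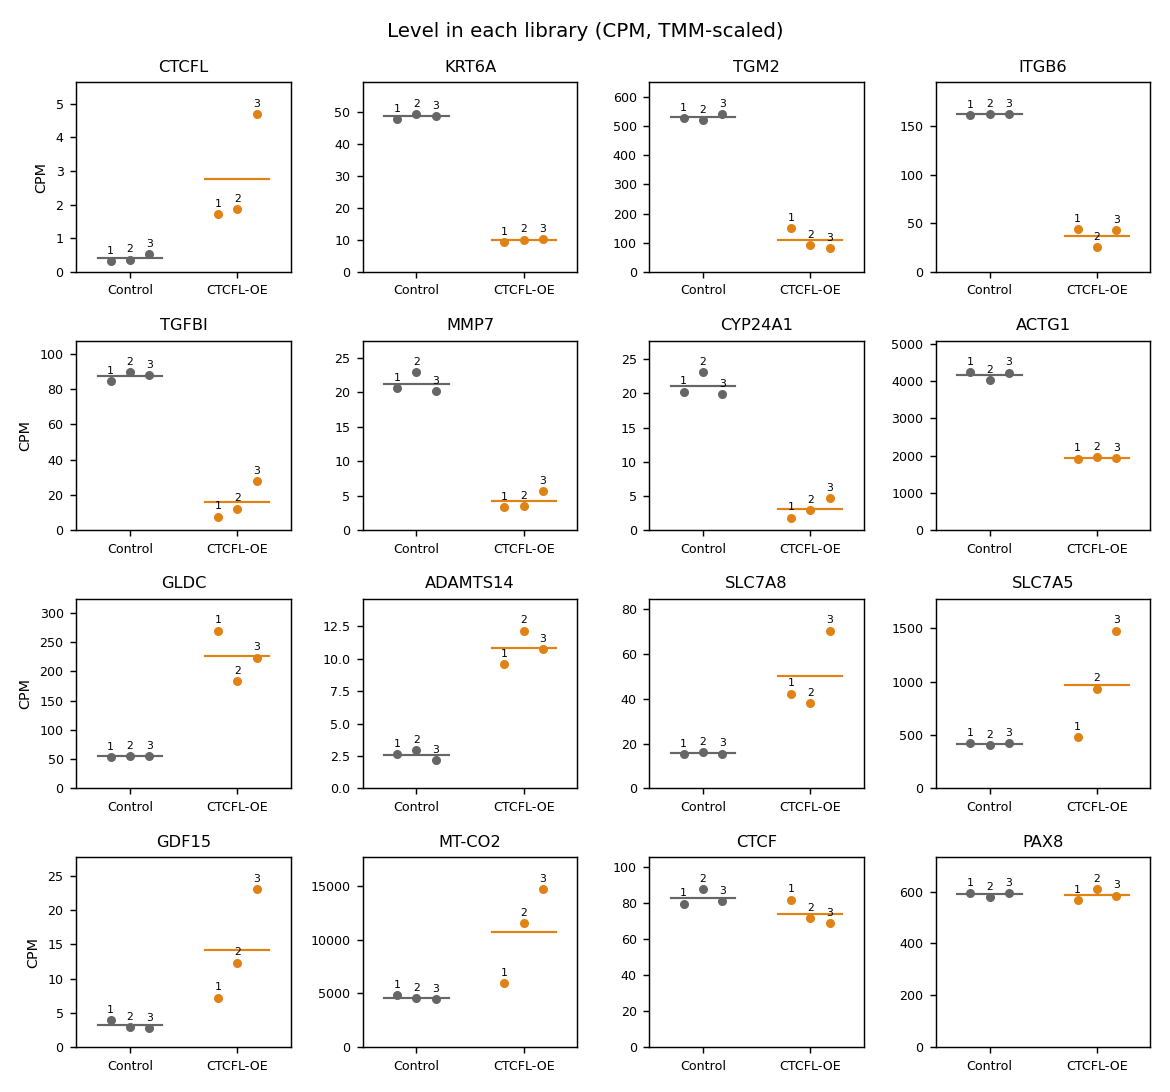
Level of 16 genes in each library in CPM after TMM scaling, with Control in grey and CTCFL-OE in orange, replicate numbers above the points and the group mean as a line. Each vertical axis starts at 0 and has its own range. KRT6A and ACTG1 have 3 nearly equal CTCFL-OE points, whereas SLC7A5, GDF15 and MT-CO2 have CTCFL-OE replicate 1 nearest to Control.

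Matrix proteins and the enzymes that cut them moved in both directions. TGM2, the tissue transglutaminase that crosslinks matrix proteins (chr20:38127385-38166578), was at 528, 522 and 543 CPM in Control and at 150, 91.4 and 82.5 CPM in CTCFL-OE (log2 fold change -2.30, SE 0.22, edgeR adjusted p = 0.00266). FN1, which encodes fibronectin, was at 320, 401 and 361 CPM against 52.8, 140 and 177 CPM (log2 fold change -1.55, SE 0.37, edgeR adjusted p = 0.0448). The fall of FN1 was largest in replicate 1, and its adjusted p lay between 0.138 and 0.156 without any 1 Control library or without CTCFL-OE replicate 2. ITGB3 fell by 1.21 (SE 0.22), with adjusted p of 0.104 to 0.113 without 1 Control library. LAMA1, a laminin chain, rose from 15.5 to 19.9 CPM to 33.6, 36.4 and 40.9 CPM (log2 fold change 1.11, SE 0.14, retained). COL26A1 and CCDC80 rose by 1.14 (SE 0.15) and 1.06 (SE 0.12), and without CTCFL-OE replicate 3 both lay just under the fold threshold, at 0.98 and 0.95. In all, 38 matrix and integrin genes were tested, with 5 DEGs each way.

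Among 30 tested proteases and inhibitors 3 were lower DEGs, all matrix metalloproteinases of 1 gene cluster on chromosome 11, and all 3 were retained. MMP10 was at 13.4, 14.9 and 13.8 CPM in Control and at 2.63 and 2.81 CPM in CTCFL-OE replicates 1 and 3, with replicate 2 lower still (log2 fold change -2.64, SE 0.24). MMP7 (chr11:102520508-102530750) was at 20.6, 22.9 and 20.2 CPM against 3.39, 3.45 and 5.68 CPM (log2 fold change -2.36, SE 0.20), and MMP1 fell by 2.06 (SE 0.27). Of the 7 higher DEGs, 3 secreted ADAMTS proteases, which cleave proteoglycans and procollagens, were retained. ADAMTS14 was at 2.68, 2.96 and 2.21 CPM against 9.56, 12.2 and 10.8 CPM (log2 fold change 2.04, SE 0.17, edgeR adjusted p = 0.00172). ADAMTS15 rose by 1.06 (SE 0.09) and ADAMTS9 by 1.19 (SE 0.16). The matrix metalloproteinase MMP14 was also a higher DEG, with a log2 fold change of 1.30, and was called in 2 of the 6 fits. The lysosomal protease CTSL was at 24.5 to 26.6 CPM in Control and 36.3, 60.8 and 92.5 CPM in CTCFL-OE (log2 fold change 1.29, SE 0.29), and was a DEG in 1 of the 6 fits, with adjusted p of 0.122 to 0.155 without 1 Control library or CTCFL-OE replicate 2, and a log2 fold change of 0.90 without CTCFL-OE replicate 3.

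Genes of actin, tubulin and their partners moved in both directions, with more falls than rises. Of 36 tested genes of actin, tubulin and their partners 10 were lower DEGs, 8 of them retained, 4 were higher, and 23 lay below the Control range in all 3 libraries (18.1% of all genes did). ACTG1, cytoplasmic gamma actin, was at 4233, 4014 and 4221 CPM in Control and at 1919, 1949 and 1929 CPM in CTCFL-OE. The 3 CTCFL-OE values were nearly equal (log2 fold change -1.11, SE 0.13, edgeR adjusted p = 0.00587). ACTB, beta actin, fell by 0.74 (SE 0.14, edgeR adjusted p = 0.0261), short of the fold threshold. TUBA4A was at 494, 454 and 484 CPM against 204, 200 and 209 CPM (log2 fold change -1.22, SE 0.11). MAP2, a microtubule-binding protein best known from dendrites, was at 171, 192 and 190 CPM against 45.7, 50.1 and 48.6 CPM (log2 fold change -1.94, SE 0.10, edgeR adjusted p = 0.000352). MAP1B, TUBB3, TMOD1 and FHOD3 fell by 1.56, 1.28, 1.37 and 1.95, and FHOD3 differed between the single libraries (-2.79, -1.84 and -1.28). MYO7A, an unconventional myosin, rose evenly from 22.7 to 26.3 CPM to 61.5, 64.4 and 63.6 CPM (log2 fold change 1.38, SE 0.10). The other higher DEGs, the microtubule-binding MAPT (log2 fold change 1.23, SE 0.31), the motor KIF1A (1.53, SE 0.29) and the tropomyosin TPM2 (1.43, SE 0.31), were called in 3, 2 and 2 of the 6 fits. The intermediate filament VIM fell as well, at 9.67, 9.03 and 8.75 CPM against 2.82, 1.86 and 2.15 CPM (log2 fold change -1.99, SE 0.18, retained), while CDH1 did not pass the test (log2 fold change 0.30, SE 0.19). VIM was the only lower DEG of 19 tested genes of epithelial and mesenchymal state, of which 1 was higher.

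Several genes of inflammatory signalling fell. Of 22 tested NF-kB and cytokine genes 5 were lower DEGs and 1 was higher, and 12 lay below the Control range in all 3 libraries (18.1% of all genes did). The list median was -0.50 (-0.80, -0.57 and -0.39 in the single libraries). CXCL8, the neutrophil chemokine interleukin-8, was at 35.9, 37.0 and 37.5 CPM in Control and 5.98, 6.74 and 14.2 CPM in CTCFL-OE (log2 fold change -2.05, SE 0.29, edgeR adjusted p = 0.0107). TNFAIP3, a feedback inhibitor of NF-kB, was at 72.1 to 77.3 CPM against 26.3, 33.9 and 44.5 CPM (log2 fold change -1.10, SE 0.18), and -0.93 without CTCFL-OE replicate 1. The signalling proteins IRAK2 and MALT1 fell by 1.28 (SE 0.15) and 1.15 (SE 0.13) and were retained with CXCL8. IL12A, a subunit of interleukin-12, rose from 1.39 to 2.56 CPM to 5.78, 6.41 and 7.18 CPM (log2 fold change 1.62, SE 0.23, retained). IL6 had CTCFL-OE values of 1.72, 2.85 and 6.07 CPM on both sides of its Control range of 3.28 to 3.50 CPM, with a log2 fold change of 0.03 (SE 0.40), and of -1.38 with the mitochondrial share of counts as a covariate.

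Of 24 tested genes that report ERK activity 3 were lower DEGs and 1 was higher. In all 3 libraries 10 of them lay below the Control range (18.1% of all genes did). The phosphatase DUSP4 was at 8.85, 8.11 and 10.4 CPM in Control and 2.87, 3.45 and 4.31 CPM in CTCFL-OE (log2 fold change -1.37, SE 0.19). The ETS factor ETV4 was at 40.7 to 43.9 CPM against 19.8, 21.4 and 20.6 CPM (log2 fold change -1.05, SE 0.10, edgeR adjusted p = 0.00205), and both were retained. IER3 fell by 1.01 (SE 0.25) and was a DEG in 1 of the 6 fits, with edgeR adjusted p of 0.151 to 0.166 without 1 Control library or CTCFL-OE replicate 2 and a log2 fold change of -0.84 without CTCFL-OE replicate 1. The higher DEG, DUSP2, was at 2.92 to 3.66 CPM against 6.65, 15.8 and 24.7 CPM (log2 fold change 2.20, SE 0.43), with adjusted p of 0.124 to 0.130 without 1 Control library. Of 16 AP-1 and immediate early genes only EGR3 was a DEG, at 0.515 to 1.03 CPM against 4.45, 2.96 and 2.61 CPM (log2 fold change 1.97, SE 0.32, retained), while FOS and JUN had log2 fold changes of 0.17 (SE 0.24) and 0.24 (SE 0.11) and did not pass the test.

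Of 33 tested genes of PI3K-Akt signalling 2 were lower DEGs and 1 was higher. Ligands, receptors, integrins and matrix proteins that also act on this pathway, such as FGFR1, ITGB6, FN1 and VEGFA, were counted in other lists. INPP4B, a phosphatase that removes a product of PI3K, was at 21.8, 19.9 and 21.6 CPM in Control and 8.61, 7.34 and 8.68 CPM in CTCFL-OE (log2 fold change -1.36, SE 0.12, edgeR adjusted p = 0.00175, retained). IGF1, a ligand of the pathway, was at 1.96 to 2.57 CPM against 0.335, 0.219 and 0.848 CPM (log2 fold change -2.26, SE 0.40), with an adjusted p of 0.111 without Control replicate 1. INSR, the insulin receptor, rose from 14.5 to 15.5 CPM to 22.6, 37.9 and 38.9 CPM (log2 fold change 1.14, SE 0.20), with adjusted p of 0.105 to 0.118 without 1 Control library. AKT1 had a log2 fold change of -0.16 (SE 0.09) and did not pass. Of 18 FOXO target genes 3 fell, and TNFSF10, the death ligand TRAIL, and ARRDC4 were retained (log2 fold changes -1.20, SE 0.19, and -1.27, SE 0.20).

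Large falls were also seen outside these groups. CYP24A1, the enzyme that breaks down active vitamin D (chr20:54153446-54173986), was at 20.3, 23.1 and 19.9 CPM in Control and at 1.82, 2.96 and 4.63 CPM in CTCFL-OE (log2 fold change -2.78, SE 0.27, edgeR adjusted p = 0.00266). It belongs to a list of 13 vitamin D and annexin genes with 2 DEGs each way. H19, the imprinted noncoding RNA whose control region is a textbook CTCF target (chr11:1995166-2004552), was at 13.0, 13.7 and 13.5 CPM against 4.40, 1.10 and 1.44 CPM (log2 fold change -2.49, SE 0.41). Its fall was smallest in replicate 1, and its imprinted neighbour IGF2 had at most 1 count in any library. GPR141, an orphan receptor, had 20, 26 and 21 counts in Control and 1, 0 and 1 in CTCFL-OE, a ratio of summed counts of 0.035 with a 95% counting interval of 0.00415 to 0.131. CCNA1, a cyclin of the germline, was at 92.6 to 97.8 CPM against 27.3, 32.3 and 27.1 CPM (log2 fold change -1.73, SE 0.11), and CDKN2B, the cell cycle inhibitor p15, at 119 to 132 CPM against 46.0, 43.9 and 51.0 CPM (log2 fold change -1.40, SE 0.10). All of these but IGF2 were retained DEGs. CCNA1, CDKN2B and, below, NKILA, LYPD1, HSPB7, GLDC, DHRS3, DHRS9, BOC, CDON, NCAM1, CSPG4 and POU5F1 were chosen after their values were seen.

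Of 6 retained lower noncoding RNAs, 3 overlap another tested gene. NKILA, a noncoding RNA that restrains NF-kB, was at 9.06, 9.87 and 9.37 CPM against 2.25, 1.97 and 2.15 CPM (log2 fold change -2.15, SE 0.15, edgeR adjusted p = 0.000948). It starts at chr20:57710156 on the strand opposite to PMEPA1 and overlaps its 5′ end, and the strand setting of the counting was not stated, so reads of these genes may not be told apart. The unnamed noncoding genes ENSG00000276850 and ENSG00000273760 overlap on 1 strand of chromosome 10 and had log2 fold changes of -3.35 (SE 0.28) and -2.96 (SE 0.22), with counts of 52 to 76 against 3 to 7 for ENSG00000276850, so they are uncertain as separate genes.

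The largest retained rises were of genes with low levels, the noncoding RNAs LINC01310 and LINC00173 (log2 fold changes 2.54, SE 0.35, and 2.40, SE 0.38), RIC3, a chaperone of acetylcholine receptors (2.28, SE 0.28), SGIP1 and the small heat shock protein HSPB7 (2.16, SE 0.32). LINC01310 was at 0.200 to 0.309 CPM in Control and 1.58, 1.59 and 0.979 CPM in CTCFL-OE. Among more abundant genes, GLDC, the glycine decarboxylase of the mitochondrial glycine cleavage system (chr9:6532467-6645729), was at 53.5, 54.6 and 55.7 CPM in Control and at 269, 183 and 223 CPM in CTCFL-OE (log2 fold change 2.04, SE 0.15, edgeR adjusted p = 0.000968). SGIP1, which takes part in endocytosis, was at 1.65 to 1.92 CPM against 6.60, 7.45 and 10.3 CPM (log2 fold change 2.19, SE 0.22). DHRS3, which reduces retinal to retinol, was at 12.4 to 13.2 CPM against 33.8, 37.3 and 39.6 CPM (log2 fold change 1.52, SE 0.11), and DHRS9 rose by 1.21 (SE 0.17). BOC and CDON, co-receptors for Hedgehog ligands, rose by 1.35 (SE 0.11) and 1.19 (SE 0.18), and the neural adhesion molecule NCAM1 was at 30.3 to 34.6 CPM against 78.4, 82.4 and 92.0 CPM (log2 fold change 1.40, SE 0.11). The proteoglycan CSPG4 rose by 1.91 (SE 0.22). POU5F1, the pluripotency factor OCT4, was low in both groups, at 1.24 to 1.52 CPM against 3.87, 3.12 and 3.39 CPM (log2 fold change 1.35, SE 0.20), and has expressed pseudogenes that can take its reads. The 76 retained higher DEGs had a median level of 4.41 CPM in Control and median differences of 1.42, 1.43 and 1.53 in the single libraries, and the 66 retained lower ones 14 CPM and -1.59, -1.61 and -1.39.

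Membrane transporters that passed the test mostly rose. Of 244 solute carrier genes tested 23 were higher DEGs and 2 lower, against 3.8% and 1.08% of all genes, and the median difference over all 244 was 0.05, 0.30 and 0.71 in replicates 1, 2 and 3. Only 4 of the 23 were retained, and in 3 of these replicate 1 lay above replicate 2. SLC7A8, a neutral amino acid transporter, was at 15.2 to 16.3 CPM in Control and 42.4, 38.0 and 70.4 CPM in CTCFL-OE (log2 fold change 1.67, SE 0.22). The sodium-calcium exchanger SLC8A1 was at 17.1 to 17.7 CPM against 43.6, 47.3 and 70.4 CPM (log2 fold change 1.63, SE 0.18), the anion transporter SLC26A7 rose by 1.73 (SE 0.19), and the amino acid transporter SLC38A4 by 2.03 (SE 0.31). Of 44 genes of potassium channels and their interacting proteins 8 were higher and 1 lower, and the channel KCNJ5 and the cytosolic calcium-binding channel partner KCNIP3 were retained (log2 fold changes 1.21, SE 0.13, and 1.45, SE 0.17). All 4 DEGs among 31 ABC transporters were higher and none was retained, and of 55 axon guidance genes 5 were higher, with SEMA5B retained (log2 fold change 1.66, SE 0.23). The share of mitochondrial counts given above was highest in replicates 2 and 3, and its part in the differences between libraries was not tested.

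Receptors for secreted factors leaned the same way. Of 25 tested 8 were higher DEGs and none was lower, the median was 0.68, and the single libraries gave 0.14, 0.70 and 1.07. FZD4, a Wnt receptor, was at 6.74, 6.27 and 5.51 CPM in Control and 15.2, 14.6 and 14.7 CPM in CTCFL-OE (log2 fold change 1.26, SE 0.13). TSHR, the thyrotropin receptor, was at 16.4 to 17.0 CPM against 43.0, 38.1 and 53.9 CPM (log2 fold change 1.42, SE 0.14), and the complement receptor C5AR1 rose by 1.16 (SE 0.14), all 3 retained. FGFR1 was at 68.4 to 74.9 CPM against 127, 157 and 174 CPM (log2 fold change 1.09, SE 0.13), and 0.98 without CTCFL-OE replicate 3. Of 28 secreted growth factors and hormones 7 were higher and 3 lower. VEGFA, the main angiogenic factor, was at 14.3, 15.2 and 14.3 CPM against 23.9, 37.1 and 37.8 CPM (log2 fold change 1.17, SE 0.18), and the neurotrophin NTF3 rose by 1.36 (SE 0.19), both retained. WNT11 fell unevenly, at 43.1 to 47.9 CPM against 8.41, 16.5 and 33.0 CPM (log2 fold change -1.24, SE 0.40, edgeR adjusted p = 0.083), and was a DEG in 1 of the 6 fits, with edgeR adjusted p of 0.200 to 0.243 without 1 Control library or CTCFL-OE replicate 2 and a log2 fold change of -0.88 without CTCFL-OE replicate 1.

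Genes of the integrated stress response were higher in 8 of 31 cases and lower in none, and none of the 8 was retained. The median differences were 0.11, 0.52 and 0.40 in the single libraries. GDF15, a stress hormone, was at 2.73 to 3.86 CPM in Control and 7.22, 12.3 and 23.1 CPM in CTCFL-OE (log2 fold change 2.17, SE 0.40), with adjusted p of 0.105 to 0.130 without 1 Control library. SLC7A11, the cystine transporter, was at 10.3 to 11.8 CPM against 14.4, 33.9 and 48.4 CPM (log2 fold change 1.51, SE 0.37), and SLC7A5, which carries large amino acids, at 423, 402 and 428 CPM against 484, 934 and 1476 CPM (log2 fold change 1.21, SE 0.34, edgeR adjusted p = 0.0641). Replicate 1 lay near Control for both, and both were DEGs in few fits, with edgeR adjusted p of 0.152 and 0.174 without CTCFL-OE replicate 2 and of 0.159 to 0.212 without 1 Control library. SLC7A5 was at 0.76 on the log2 scale without CTCFL-OE replicate 3, and at -0.04 with the mitochondrial share of counts as a covariate, an alternative chosen after seeing the data. The messenger of the central factor ATF4 was at 216 to 231 CPM against 238, 263 and 243 CPM (log2 fold change 0.15, SE 0.10) and did not pass the test.

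Mitochondrially encoded transcripts showed the same split. Of 13 protein-coding ones 6 were higher DEGs, none was retained, and the median differences were 0.17, 0.95 and 1.47. MT-CO2, a subunit of cytochrome oxidase, was at 4824, 4529 and 4441 CPM in Control and 5987, 11587 and 14750 CPM in CTCFL-OE (log2 fold change 1.23, SE 0.30, edgeR adjusted p = 0.0476), and 0.93 without CTCFL-OE replicate 3. Without any 1 Control library or CTCFL-OE replicate 2 its adjusted p was 0.158 to 0.197. The nuclear pseudogene copies MTND2P28 and MTATP6P1 moved with them, by 1.03 and 1.07 on the log2 scale (-0.11 and 0.07 with the mitochondrial share as a covariate), and can take reads of the mitochondrial genes. Of 80 nuclear genes for oxidative phosphorylation none was a DEG (median -0.07), and 4 were higher at an adjusted p under 0.1 alone, which 12.2% of all genes passed as higher and 7.96% as lower. Of 82 cytosolic ribosomal protein genes none was a DEG, and the median differences were 0.05, -0.31 and -0.38.

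Interferon-stimulated genes gave 4 higher DEGs of 27, none retained. IFIT1, an antiviral RNA-binding protein, was at 2.08 to 2.99 CPM in Control and 9.18, 5.32 and 4.57 CPM in CTCFL-OE, with replicate 1 the highest (log2 fold change 1.36, SE 0.29), 0.99 without that library, and its edgeR adjusted p was 0.130 to 0.145 without 1 Control library. Among 18 genes of the NRF2 and glutathione list 4 were higher, and the glutathione transferases GSTM2 and GSTM4 were retained, at 4.84 to 6.12 CPM against 15.6, 15.7 and 14.2 CPM for GSTM2 (log2 fold change 1.43, SE 0.14) and with a log2 fold change of 1.45 (SE 0.13) for GSTM4. These are similar genes side by side on chromosome 1 that can share reads. NQO1, the usual reporter of NRF2, did not pass (log2 fold change 0.21, SE 0.11). Of 28 glycolysis and hypoxia genes 2 were higher and 2 lower DEGs, and 17 lay below the Control range in all 3 libraries (18.1% of all genes did). At an adjusted p under 0.1 alone 9 were lower and 3 higher, against 7.96% and 12.2% of all genes. The list median was -0.30. LDHA, lactate dehydrogenase, was at 1717, 1779 and 1761 CPM against 1056, 730 and 712 CPM (log2 fold change -1.07, SE 0.18). Without CTCFL-OE replicate 2 or 3 it was -0.99 or -0.98, and without Control replicate 2 or 3 the edgeR adjusted p was 0.102 or 0.105. BNIP3 fell by 1.02 (SE 0.11), with log2 fold changes of -0.97 without Control replicate 3 and -0.96 without CTCFL-OE replicate 3. The 9 testable cancer-testis genes gave YBX2, a germ cell RNA-binding protein, as a higher and RP1 as a lower retained DEG (log2 fold changes 1.23, SE 0.18, and -1.24, SE 0.17).

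Growth and chromatin genes held few or no DEGs. None of 24 mitotic genes, 26 DNA replication genes or 14 genes of CTCF and cohesin was a DEG in edgeR. In all 3 libraries 10 mitotic genes lay above the Control range and 0 below it. For replication genes these counts were 3 and 12, and for CTCF and cohesin 0 and 4, against 18.8% and 18.1% of all genes. At an adjusted p under 0.1 without the fold threshold, which 12.2% of all genes passed as higher and 7.96% as lower, 4 mitotic genes were higher, 6 replication genes were lower and 1 was higher, and 1 gene of CTCF and cohesin was lower. MKI67 was at 314, 414 and 364 CPM against 505, 601 and 598 CPM (log2 fold change 0.64, SE 0.14). Among 16 tested genes of a list of reported CTCFL targets and imprinted genes, H19 and FN1 were lower and SALL4 higher (log2 fold change 1.26, SE 0.25), the last with an edgeR adjusted p of 0.124 to 0.138 without 1 Control library and a log2 fold change of 0.97 without CTCFL-OE replicate 2. TGFB1, given above, did not pass, and MYC and TERT had log2 fold changes of 0.36 (SE 0.11) and 0.27 (SE 0.28). Of 425 ZNF genes 2 were higher and 1 lower, of 32 replication-dependent histone genes 1 was higher, of 24 genes of cholesterol and fatty acid synthesis 1 was higher, of 18 YAP and TEAD targets 1 was higher, and none of the 5 tested clustered protocadherins was a DEG. The lists were read by their counts beside 3.8% and 1.08% of all genes, and no list was tested.

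**Figure D5:**
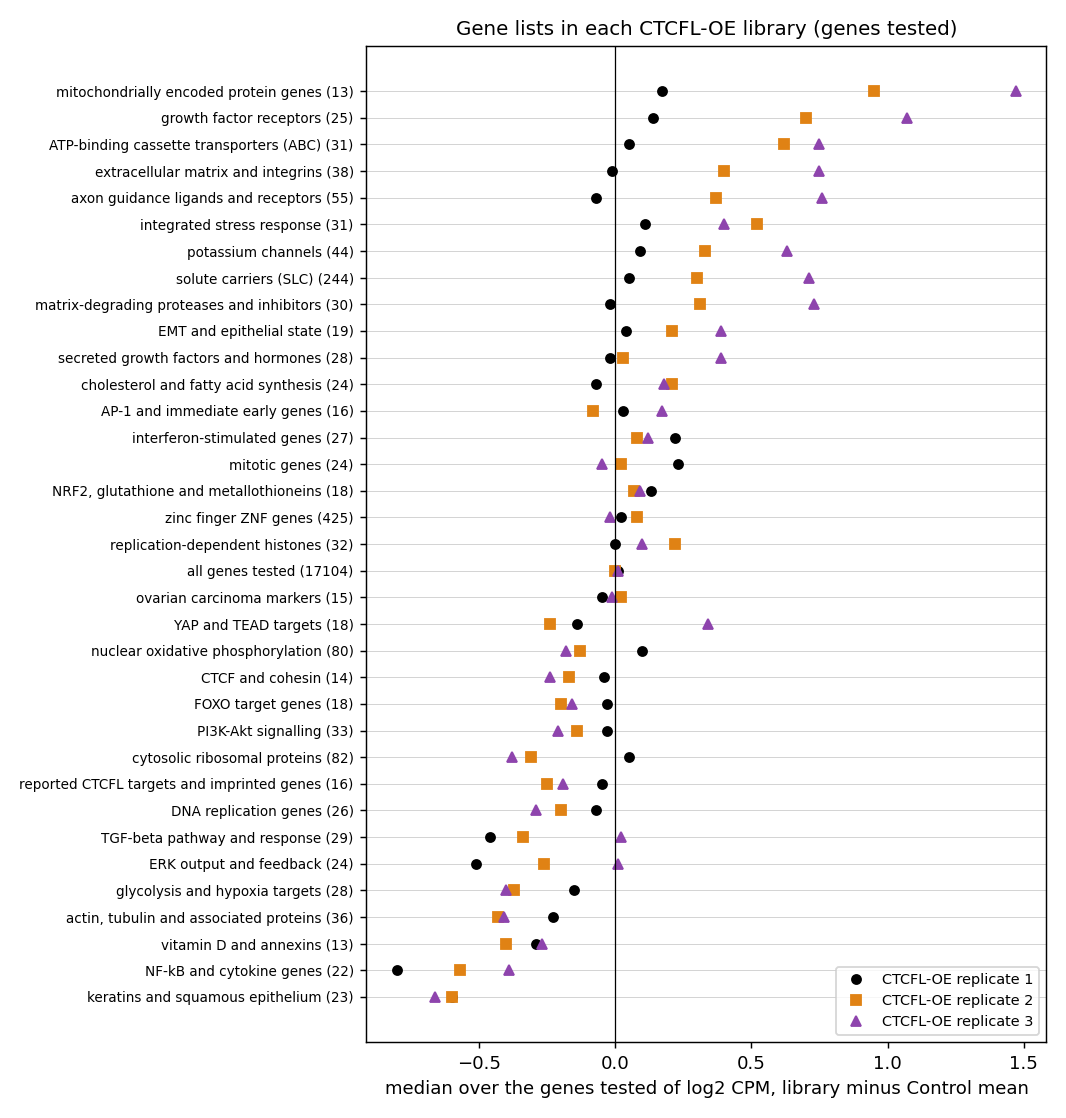
Median over the genes tested of log2 CPM in each CTCFL-OE library minus the Control mean, for each gene list with at least 10 tested genes (number in brackets) and for all genes tested. The 3 libraries coincide for keratins (-0.60, -0.60 and -0.66), and spread widely for mitochondrially encoded genes (0.17, 0.95 and 1.47) and receptors (0.14, 0.70 and 1.07).

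Some genes set a single CTCFL-OE library apart from the other 5. In replicate 1, DEPTOR, an mTOR inhibitor, was at 15.2 CPM against 4.12 to 5.37 CPM elsewhere, and the matrix protein THBS1 was at 79.2 CPM against 221 to 381 CPM. SAMD11 and PTX3 were also low in replicate 1, at 10 and 4.97 CPM against lowest other values of 27.2 and 12 CPM. In replicate 2, TRIM46 was high at 15.9 CPM against at most 8.75 CPM, and COX16, TMEM178A and DUSP6 were low at 3.01, 8.05 and 3.34 CPM, as was MMP10. In replicate 3, IGFBP3, a carrier of insulin-like growth factors, was at 3105 CPM against 1008 to 1333 CPM, and BDNF, ADAMTS5, STC1 and IGFBP4 were at 26.5, 64.7, 81.3 and 189 CPM against at most 9.97, 25.6, 35.5 and 86.5 CPM. Of all these genes BDNF and STC1 were DEGs (log2 fold changes 1.93, SE 0.53, and 2.04, SE 0.34), as were FN1 and MMP10, the latter retained, and without 1 Control library or CTCFL-OE replicate 2 BDNF had edgeR adjusted p of 0.138 to 0.206 and STC1 0.104 or 0.106 without Control replicate 2 or 1.

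Higher DEGs had low levels. Their median Control level was 1.22 CPM, against 3.15 CPM for lower DEGs and 14.8 CPM for all genes tested, and 292 of the 650 were under 1 CPM in Control. In bulk RNA fewer cells of a kind and less RNA per cell cannot be told apart. Long noncoding RNAs made up 26.9% of the higher and 17.8% of the lower DEGs, against 11.4% of all genes. The median GC content of the transcripts was 51.2%, 46.1% and 48.0% in the same order. Differences followed GC content in 2 of the libraries. From the fifth of genes with the lowest to that with the highest GC content the median difference went from -0.281 to 0.13 in replicate 2 and from -0.27 to 0.154 in replicate 3, and lay near 0 in replicate 1.

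Promoter letters of the DEGs are shown because the rule for DEGs did not use them. RefSeq promoter windows of GRCh38.p14, from 250 bases before to 50 after a start, were matched to 11597 of the genes tested, among them 333 higher and 114 lower DEGs, and 8 short motifs were searched on both strands, with overlaps between motifs left in. The motif TGANTCA, bound by AP-1 factors, was found for 7.13% of all these genes, 9.91% of higher and 19.3% of lower DEGs, and for 10 of 50 retained higher (20%) and 14 of 46 retained lower DEGs (30.4%). The sets had 1.45, 1.56 and 1.65 windows a gene for all, retained higher and retained lower genes, and per window the shares were 5.37%, 14.1% and 19.7%. TATAAA was found for 25.4% of lower DEGs and 8.71% of all genes, and GGGCGG for 55.3% and 75.6%. A CTCF core motif was found for 6.01% of higher and 4.39% of lower DEGs and for 7.23% of all genes. The NF-kB, CRE, CARE and ISRE motifs were found for 2.83 to 3.84% of all genes, 2.40 to 6.91% of higher and 2.63 to 5.26% of lower DEGs. A match is a description of the letters and not a binding site, and no test was made. Stretches of 30 bases before the start of 5 retained lower DEGs are printed 5′ to 3′ on the gene's strand, with TGANTCA in capitals. The LYPD1 stretch holds 2 adjoining matches. LYPD1, a GPI-anchored protein, fell by 1.91 (SE 0.13) on the log2 scale, and the other 4 are described above.
CXCL8, chr4:73740421-73740450, plus strand: aggaagtgtgaTGACTCAggtttgccctga
MMP7, chr11:102530796-102530825, minus strand: aaacactcaaaTGAGTCAcctatttccaca
MMP10, chr11:102780677-102780706, minus strand: aaacacatgcaTGAATCAtactgttggtga
LYPD1, chr2:132671718-132671747, minus strand: tactTGAATCATGACTCAcacgtgctctta
ARRDC4, chr15:97960573-97960602, plus strand: cgccaatgaaaTGACTCAgtgaccatctac

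The study also lists predicted CTCFL binding sites for genes it called on these samples, so the share of DEGs among them is not independent evidence. Of 48 sites 47 were found on GRCh38 within 1 base of the listed position, and 28 of the 48 hold AGGGGGC, printed in capitals below. Of the 47 listed genes whose names were matched to a gene tested 34 were higher and 12 were lower DEGs, and 25 were retained. FAM198B was not matched by its listed name and is left out of these counts and of the placed sites. Against the GENCODE 44 models 46 sites could be placed, 11 upstream of the gene, 19 in an exon, 12 in an intron and 4 downstream. For the 24 genes on the plus strand 13 sites lay within 1000 bases of the gene's 5′ end. For the 22 genes on the minus strand 1 did, and all 22 lay nearer to the 3′ end. Upstream sites of 3 higher and 2 lower retained DEGs are shown in the study's letters. The VEGFA site lies 546 bases, the IL12A site 122 bases, the RBM20 site 103 bases, the CXCL8 site 464 bases and the TGFBI site 59 bases before the gene.
VEGFA, chr6:43769631-43769644, plus strand: cactAGGGGGCgct
IL12A, chr3:159988707-159988720, plus strand: cggcAGGGGGCgct
RBM20, chr10:110644228-110644238, minus strand: ccAGGGGGCgt
CXCL8, chr4:73740051-73740058, minus strand: AGGGGGCa
TGFBI, chr5:136028925-136028933, minus strand: cgccagggg
Among other retained lower DEGs, the sites of FHOD3 and MAP1B lay 454 and 195 bases from the 5′ ends of the genes, and those of MMP7 and CYP24A1 lay 11838 and 18530 bases from them, the MMP7 site downstream of the gene and the CYP24A1 site in an intron. RBM20, a splicing regulator, was a retained DEG that rose by 1.64 on the log2 scale.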

How the data were processed

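The deposited values are raw counts of reads per gene, made by the authors from paired-end reads of a stranded mRNA kit: per the study's methods reads were trimmed with Trimmomatic, aligned to GRCh38 with STAR and counted with featureCounts, with 3 technical replicates pooled per biological replicate. The annotation release, strand setting and treatment of multiply mapped reads were not given in the sources used here, and kallisto is named in the submitters' processing notes with no role. The 60660 identifiers were matched to GENCODE 44, which named 60419.

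Counts were scaled by TMM and filtered with filterByExpr (17104 genes kept), and the test of CTCFL-OE against Control was edgeR's quasi-likelihood test (edgeR 4.0.16, R 4.3.3) on the 6 libraries, with Benjamini-Hochberg adjustment over all genes. The study used DESeq2, run here as an alternative (DESeq2 1.42.0, limma 3.58.1). DEG thresholds are those of the study. In simulated counts for this comparison (16913 genes) 92.4% of genes with a log2 change of 1.5 and 100% of those with 2 were recovered, with 6 false calls. Changes were simulated only in genes above 1 CPM, and alike in every CTCFL-OE library, with no difference in composition between libraries. Of the 650 higher DEGs 292 were under 1 CPM in Control, so the simulation does not give the false calls among the 835 DEGs. With 3 cultures a group, the p-values set the difference between groups against the spread between these cultures. The fit moderated that spread across genes. Single-library differences are log2 CPM with a prior count of 2 minus the Control mean. Counting intervals cover counting error only. Totals of 17249451 to 24490080 counts set the precision.

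Named genes were CTCFL and CTCF, the 15 highest and 15 lowest DEGs with no overlap between groups and at least 1 CPM, the 10 most abundant DEGs, the 5 in each direction with the largest weakest library, the 5 genes setting each CTCFL-OE library apart, the DEGs and key members of each list, and DEGs with a listed site. The members, lists and tests were chosen with earlier results of these data known. Alternatives covered the tool, the libraries in the fit, scaling, filters, thresholds, the prior count, the replicate number as a block and leaving out each library. The 3 CTCFL-depleted libraries entered only the fits to all 9 libraries. Promoter windows are from RefSeq (GRCh38.p14). Results for some items are not reported here.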

Additional observations from a re-analysis of the deposited data

How the results depend on the processing

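The 835 DEGs (650 higher, 185 lower) became 368 with edgeR on all 9 libraries (243 higher), 1263 with no low-count filter (331 lower), 574 with at least 10 counts in every library (111 lower), 508 at an adjusted p under 0.05 (371 higher), 3450 with no threshold on the fold change (2088 higher, 1362 lower) and 23 when glmTreat tested against a log2 fold change of 1 (5 higher, 18 lower). With the mitochondrial share of counts as a covariate, chosen after seeing the data like the removal of a GC trend, 501 were called (219 higher, 282 lower), 228 of them shared with the 835, and higher calls made up 43.7% in place of 77.8%. With 1 library or 1 replicate number left out the DEGs ranged from 0 to 1784, the higher ones from 0 to 1461 and the lower ones from 0 to 323. The higher share was 54.5 to 58.2% without 1 Control library and 45.2% without replicate 3. The 207 DEGs past 1 in all 3 CTCFL-OE libraries became 118 with at least 10 counts, 23 with glmTreat and 0 to 209 with libraries left out. The CTCFL log2 fold change ranged from 2.17 to 3.01 with libraries left out, missed the threshold without Control replicate 1 or 2 or replicate 2, and was 2.77 with an adjusted p of 0.437 in glmTreat; it could not be tested with at least 10 counts in every library. The covariate turned the direction of MT-ND2 (-0.11), MT-CYB (-0.12), MTND2P28 (-0.11), SLC7A5 (-0.04), IL6 (-1.38) and SLC12A3 (-0.09). The cause of these changes was not tested. DESeq2, voom, other scalings, removal of mitochondrial genes, robust estimation off and the GC trend gave 642 to 880 DEGs. Replicate numbers did not pair the libraries. The log2 CPM of each library was taken as its deviation from the mean of its group. These deviations correlated by -0.0361, 0.198 and -0.0645 between same-numbered libraries over 15203 genes. The fit with the replicate block called 817 DEGs, 770 of them shared, and left CTCFL at 2.72. Depth limits genes with few counts, among them CTCFL.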

Other observations

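Of genes that mark ovarian carcinoma, FOLR1, the folate receptor, was at 15.3, 14.5 and 14 CPM in Control and 27.2, 32.6 and 47.4 CPM in CTCFL-OE (log2 fold change 1.29, edgeR adjusted p = 0.0133, called in all 6 fits that left out 1 library), while PAX8 was at 580 to 594 CPM and 568 to 610 CPM. The lowest FOLR1 value of CTCFL-OE lay above the highest of Control, and the PAX8 ranges overlapped. Of the 15 markers, 3 were higher and 3 lower at an adjusted p under 0.1 (12.2% and 7.96% of all genes), 2 were DEGs, both higher, and the median log2 fold change was -0.01. WT1, a transcription factor of serous carcinoma, was at 73.3 to 75.9 CPM in Control and 59.6, 43 and 42.2 CPM in CTCFL-OE (log2 fold change -0.63, SE 0.14, edgeR adjusted p = 0.0396).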
